A study of Homo sapiens with 6 samples.

Results

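The genes described here are 44 human genes for Wnt ligands, their receptors and their secreted regulators, read in a map of where the homeodomain transcription factor GSX2 bound the genome. They comprise 19 WNT ligands, 12 receptors and co-receptors (FZD1 to FZD10, LRP5 and LRP6), 9 secreted antagonists (SFRP1, SFRP2, SFRP4, SFRP5, FRZB and DKK1 to DKK4) and the 4 R-spondins. The genes were chosen by name, with earlier results of these data known. All 44 were found among 19974 protein-coding genes of chromosomes 1 to 22 and X. A GSX2 region was counted for a gene when the strongest summit of the peak was nearer to its span, the stretch between the 2 annotated ends, than to any other protein-coding span.

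GSX2 occupancy was read by ChIP-seq, in which DNA bound by the protein is precipitated and sequenced. There were 3 replicates of 1 group and no contrast between conditions. The cells were H9, an established human embryonic stem cell line, carrying a TRE3G 2xFLAG-GSX2 WT transgene. TRE3G is a doxycycline-responsive promoter, so the tagged wild-type protein was made on induction: 100 ng/mL doxycycline was given for 12 hours from day 10 of an LGE-like differentiation and chromatin was taken at day 10.5. LGE stands for lateral ganglionic eminence, the ventral forebrain region where GSX2 normally acts. The M2 antibody reads the FLAG tag, so the peaks describe induced protein and not the cell's own GSX2. All samples had Wnt signalling inhibited during differentiation: XAV939, a tankyrase inhibitor, was given in the first stage together with LDN193189 and SB431542, which block BMP and TGF-beta receptors, and IWP2, an inhibitor of Wnt secretion, was given with Activin A in the last. The 3 input libraries have no values here, no cells without the transgene were analysed, and no marker of cell identity could be checked, since the files hold peaks and no expression.

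The lists held 9859, 7471 and 9122 peaks in replicates 1, 2 and 3 on these chromosomes, with a median fold enrichment of 7.15, 7.73 and 7.48. Fold enrichment is the authors' linear ratio of signal at the summit over the peak caller's background. Read depth is unknown, so a gene without a peak had none past the authors' threshold, which is weaker than having no binding. In such bulk samples a low fold enrichment cannot tell few bound cells from weak binding. The labels number the replicates without saying whether they were separate cultures, so the SDs below may be partly technical.

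Wnt proteins are secreted, lipid-modified ligands that bind a Frizzled receptor and, for the beta-catenin branch, the co-receptors LRP5 or LRP6. Receptor engagement stops the destruction of beta-catenin, which then acts with TCF and LEF factors in the nucleus. Secreted Frizzled-related proteins bind the ligands, Dickkopf proteins such as DKK1 block the co-receptors, and R-spondins raise the number of receptors at the cell surface. In the embryonic telencephalon several Wnt ligands are expressed at the dorsal midline and in the pallium, on the opposite side of the axis from the ventral domain of GSX2.

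GSX2 regions found in all 3 replicates lay nearest to 8 of the 44 genes, namely WNT9A, WNT1, WNT7A, FZD2, FZD3, FZD8, SFRP1 and FRZB. That is 18.2%, against 12.5% of all protein-coding genes, a share that would amount to 5.50 of 44 genes. With regions of at least 2 replicates the count was 16 of 44 (36.4%), against 20.4% of all genes, or 8.99 of 44. With a region in any replicate it was 25 of 44 (56.8%), against 33.1%, or 14.6 of 44. Members also had a longer median territory, 80.5 kb against 56.3 kb for all genes. A territory is the interval within which a summit would be assigned to the gene. The part of territory length in these counts was not tested. Per megabase of total territory, members held 1.71 shared regions and all genes 1.17. The totals were 5.84 and 3062 Mb, and single territories reached 679.7 kb for members and 11288.5 kb over all genes. These densities are scaled by total territory, to which the longest territories add most, and not by the median. The members' share was also above that of all genes in each replicate alone: 16, 17 and 20 members had a peak in replicates 1, 2 and 3 (36.4%, 38.6% and 45.5%), against 25.2%, 20.9% and 24.4% of all genes.

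**Figure D1:**
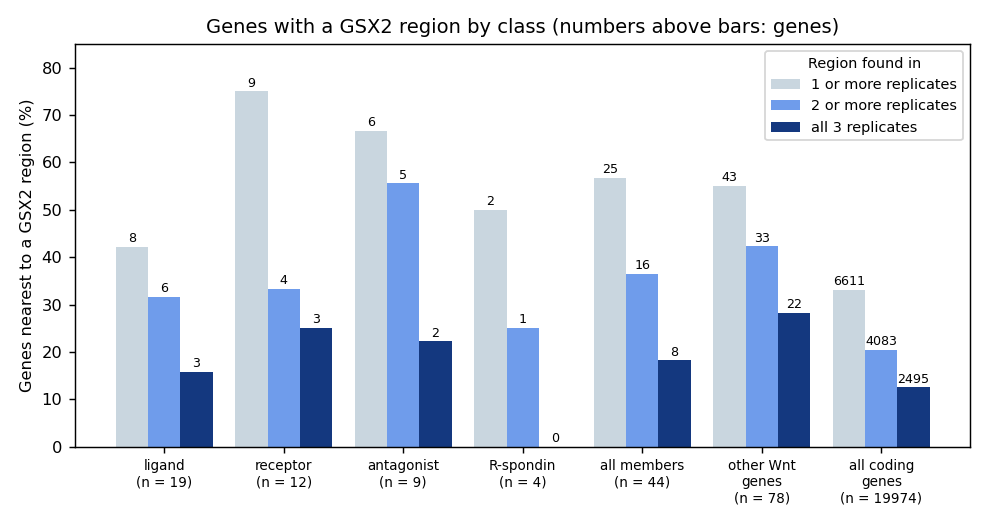
Share of genes nearest to a GSX2 region (%, vertical axis), by class of gene and by the number of replicates in which the region was found, with numbers of genes above the bars. Receptors and co-receptors reach 75% with a region in 1 or more replicates and 25% with a region in all 3, against 33.1% and 12.5% of all protein-coding genes.

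The 4 classes were compared by how many genes had a region. Among genes with any region, a shared one was present at 3 of 9 receptors, 2 of 6 antagonists, 3 of 8 ligands and 0 of 2 R-spondins. Over all genes this was 2495 of 6611, so the first 3 classes did not stand apart in reproducibility. Receptors and co-receptors had a region of all 3 replicates at 3 of 12 genes (25%), antagonists at 2 of 9 (22.2%), ligands at 3 of 19 (15.8%) and R-spondins at 0 of 4. The share of all genes was 12.5%, and the ligands' 15.8% came nearest to it. In any replicate the counts were 9 of 12 receptors (75%) and 6 of 9 antagonists (66.7%). Those of ligands were 8 of 19 (42.1%) and of R-spondins 2 of 4 (50%). Over all genes this share was 33.1%, so ligands and R-spondins lay less far above it than receptors and antagonists. The 3 receptor genes carried 5 of the 10 shared regions, which gave the receptors 3.53 shared regions per megabase of territory. Ligands had 1.83 and antagonists 1.16 per megabase, the latter close to the 1.17 of all genes. The classes also differed in median territory: 66.3 kb for ligands, 89.5 kb for receptors, 97.7 kb for antagonists and 276.2 kb for R-spondins. Over all genes it was 56.3 kb. The classes are small, and neither these differences nor the part of territory in them was tested. When peaks needed a −log10 q of at least 5, 1 of 19 ligands, WNT9A, still had a shared region, beside the same 3 receptors and 2 antagonists.

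Sequence could be read only where a region overlaps a RefSeq window around a start site, since no genome was used here. The region near WNT1 overlaps a RefSeq window at the start of a noncoding gene, LOC105369757. It is shown because it was found in all 3 replicates and holds closely spaced homeodomain cores. Homeodomain proteins of the GSX class recognise sites with a TAAT core, which reads ATTA on the other strand, and capitals mark these letters. The stretch is the part common to the peaks of all 3 replicates, chr12:48987035-48987192 in GRCh38.p14, on the minus strand, 5′ to 3′.

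WNT1 region: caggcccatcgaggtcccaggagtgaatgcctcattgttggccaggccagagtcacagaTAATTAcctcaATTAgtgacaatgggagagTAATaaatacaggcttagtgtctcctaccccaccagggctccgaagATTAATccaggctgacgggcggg

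These 158 bases hold the core letters at 6 places, some of them overlapping. The first TAAT and the ATTA that follows the first run of capitals are separated by 7 bases and lie at 48987119 to 48987133. That pair lies 25, 7 and 49 bp from the summits of replicates 1, 2 and 3. A pair of member promoters, the ones that overlapped a peak of fewer replicates, is shown beside it, FZD1 at chr7:91264183-91264432 and DKK1 at chr10:52314031-52314280, both on the plus strand and up to the RefSeq start site. Capitals again mark TAAT and ATTA.

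FZD1 promoter: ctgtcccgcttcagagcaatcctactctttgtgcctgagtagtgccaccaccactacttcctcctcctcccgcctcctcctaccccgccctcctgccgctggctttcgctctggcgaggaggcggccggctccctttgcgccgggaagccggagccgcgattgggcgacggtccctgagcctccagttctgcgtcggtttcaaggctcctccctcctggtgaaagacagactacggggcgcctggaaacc

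DKK1 promoter: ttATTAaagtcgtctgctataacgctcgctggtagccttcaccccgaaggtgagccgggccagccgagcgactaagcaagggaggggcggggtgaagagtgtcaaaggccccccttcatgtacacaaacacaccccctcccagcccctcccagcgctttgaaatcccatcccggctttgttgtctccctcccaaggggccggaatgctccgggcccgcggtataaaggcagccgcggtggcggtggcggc

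The FZD1 stretch holds none of the core letters and the DKK1 stretch holds them once. The FZD1 peak covers its whole stretch. The DKK1 region begins at 52314273, so nearly all of the DKK1 stretch, its core letters included, lies outside the peaks. RefSeq windows of 300 bases, 250 before and 50 after a start, matched 30 of the 44 genes with 33 windows. A TAAT core on either strand was present in 8 of these 33 (24.2%), against 50.2% of 35116 windows. Those 35116 belong to 27305 genes and include noncoding ones, so they are a wider set than the protein-coding genes used above. TAATTA, its own reverse complement, was in 2 (6.06%, against 4.84%). CAATTA on either strand, which can overlap TAATTA by its last bases, was in 1 (3.03%, against 7.38%). A pair of cores separated by 7 bases was in 0, against 1.60%. The members' windows were richer in G and C, with a median of 72.0% against 58.7%. Among 109 windows of any gene that held the summit of a shared region, 2 of which are the LOC105369757 windows, TAATTA was in 24.8%, CAATTA in 31.2% and the spaced pair in 11.9%. A match describes the letters and does not show a bound site.

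None of the 33 promoter windows overlapped a region of all 3 replicates. These windows leave out FZD2, FZD3 and SFRP1, 3 of the 8 genes with a shared region, so their promoters were not checked here, although FZD2 has regions close to its span. Peaks touched those of FZD1 and DKK1 in fewer replicates. At FZD1, a Frizzled receptor gene, replicate 1 had a peak of 5.54-fold whose summit lay 166 bp before the start site. At DKK1, the inhibitor of LRP5 and LRP6, peaks of 4.15-fold in replicate 1 and 4.66-fold in replicate 2 had their median summit 266 bp after the start, with 58 bp of overlap with the window. Both DKK1 peaks were among the weakest of their lists, ranking 9704 of 9859 and 7248 of 7471. Across all 35116 windows, noncoding genes included, 0.604% overlapped a shared region and 3.12% any peak.

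Among the ligands, WNT9A stood far above the rest. Its shared region (chromosome 1, 227886709 to 227887323) had fold enrichments of 39.9, 37.4 and 34.5 in replicates 1, 2 and 3, averaging 37.3 ± 2.7 (SD, n = 3). The 3 values were close, and the summits fell within 5 bp of each other. It ranked 6 of 9859, 8 of 7471 and 16 of 9122 in the 3 lists and was in place 5 of 3534 distinct shared regions of the series by mean. The summit lay 60.9 kb after the WNT9A start site and 31.6 kb beyond the other end of the span. The next protein-coding gene, PRSS38, was 40.5 kb away, not much farther than WNT9A. WNT3A, a neighbouring ligand gene on the same chromosome, lay much farther from that summit. A second region, inside WNT9A, was present in 2 replicates (10.2-fold and 10.7-fold in replicates 2 and 3).

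WNT1, the ligand of the midbrain-hindbrain organiser, had 1 region (chromosome 12, 48986585 to 48987285). Its fold enrichments were 12.2, 6.30 and 4.73, a mean of 7.74 ± 3.93 (SD, n = 3). Replicate 1 was high and replicate 3 ranked 8653 of 9122 peaks, so the spread was wide although the summits lay within 42 bp. The summit was 4.47 kb from the WNT1 span and 8.06 kb from the next coding gene, DDN. Its nearest gene of any kind was LOC105369757.

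WNT7A, a ligand of the pallium and of brain vessel formation, had the weakest of the shared regions (chromosome 3, 13896668 to 13897083). The values were 4.12, 7.03 and 6.74, a mean of 5.96 ± 1.60 (SD, n = 3), with the summit 16.7 kb before the start site. The 3 summits spread over 254 bp, and the region was no longer shared when summits had to lie within 200 bp. WNT7B, its close relative, had a stronger peak inside the gene, 14.1-fold in replicate 1 and 15.1-fold in replicate 3, but none in replicate 2. Those values placed it in the top 6.43% and 5.74% of the 2 lists.

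The remaining ligands had weaker or partial signals. WNT4, known for kidney and gonad development, had 3 regions, each in 2 replicates. The one nearest to it, 2.66 kb from the span, had 11.2-fold in replicate 1 and 8.08-fold in replicate 3, and the others lay 65.7 and 70.4 kb before the start. WNT8A, an early embryonic ligand, had 7.27-fold in replicate 2 and 11.8-fold in replicate 3 inside its span. WNT2B (6.09-fold) and WNT11 (5.23-fold) had a peak in replicate 2 alone. No region was nearest to WNT2, WNT3, WNT3A, WNT5A, WNT5B, WNT6, WNT8B, WNT9B, WNT10A, WNT10B or WNT16. WNT8B, a ligand of the hippocampal primordium, nonetheless had a region of all 3 replicates 1.96 kb from its span (11.3, 8.45 and 10.3-fold, mean 10.0 ± 1.4, SD, n = 3). That region was counted for SEC31B, 0.947 kb away, and was picked out after its values were seen. Several of the ligands sit beside another WNT gene: WNT1 and WNT10B are 6.59 kb apart, WNT3 and WNT9B 14.5 kb, WNT9A and WNT3A 59.1 kb, and the spans of WNT6 and WNT10A overlap by 118 bp. In the pairs with a region it was assigned to 1 of the 2 genes by distance alone.

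**Figure D2:**
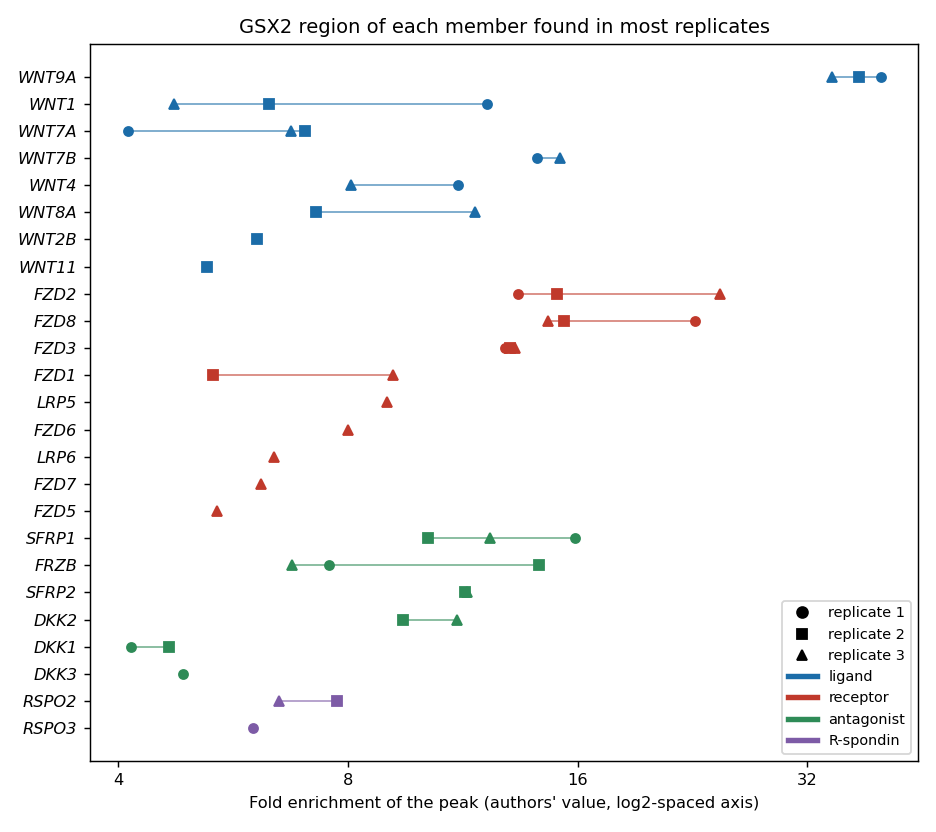
Fold enrichment (horizontal axis, linear ratio on a log2-spaced axis) in each replicate for the region of each gene that was found in the most replicates, the strongest where several tie, with lines joining the replicates of one region and colours marking the classes. WNT9A lies between 34.5 and 39.9, above every other value shown, and those of FZD2 and FZD8 lie between 13.3 and 24.6.

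Receptor genes held more shared regions per megabase than the other 3 classes, a difference that was not tested. These regions came from 3 genes, with 2 each at FZD2 and FZD3. FZD2, a Frizzled receptor, had 2 shared regions. The farther one (chromosome 17, 44539797 to 44540148), 17.6 kb from the span, had 13.3, 15.0 and 24.6-fold, a mean of 17.6 ± 6.1 (SD, n = 3). Replicate 3 was high and the other two were close. The nearer one (44556226 to 44556767), 1.04 kb from the span, had 11.1, 16.8 and 9.89-fold, a mean of 12.6 ± 3.7 (SD, n = 3). The replicates that were high differed between the regions, so their order in strength is not resolved. A further region 167 bp from the span had 9.54-fold in replicate 1 and 12.3-fold in replicate 3, and one inside it 4.34-fold in replicate 1.

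FZD8, another Frizzled receptor, had its strongest region 1.02 kb beyond the end of the gene that lies away from the start site (chromosome 10, 35637021 to 35637927). Its values were 22.8, 15.4 and 14.6-fold, a mean of 17.6 ± 4.5 (SD, n = 3), with replicate 1 above the other two. A second region inside the gene had 6.58-fold in replicate 1 and 7.67-fold in replicate 3. On the other side of FZD8, 2 more regions of all 3 replicates were counted for LOC124902528, a coding gene model that overlaps the start of FZD8. They were picked out after their values were seen. The first lay 1.24 kb before the FZD8 start (7.01, 8.81 and 5.87-fold, mean 7.23 ± 1.49, SD, n = 3) and the second 2.90 kb before it (6.54, 7.73 and 10.1-fold, mean 8.13 ± 1.83, SD, n = 3). FZD8 was thus flanked by 3 shared regions within 3 kb of its span, while its own 300-base promoter window overlapped none.

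**Figure D3:**
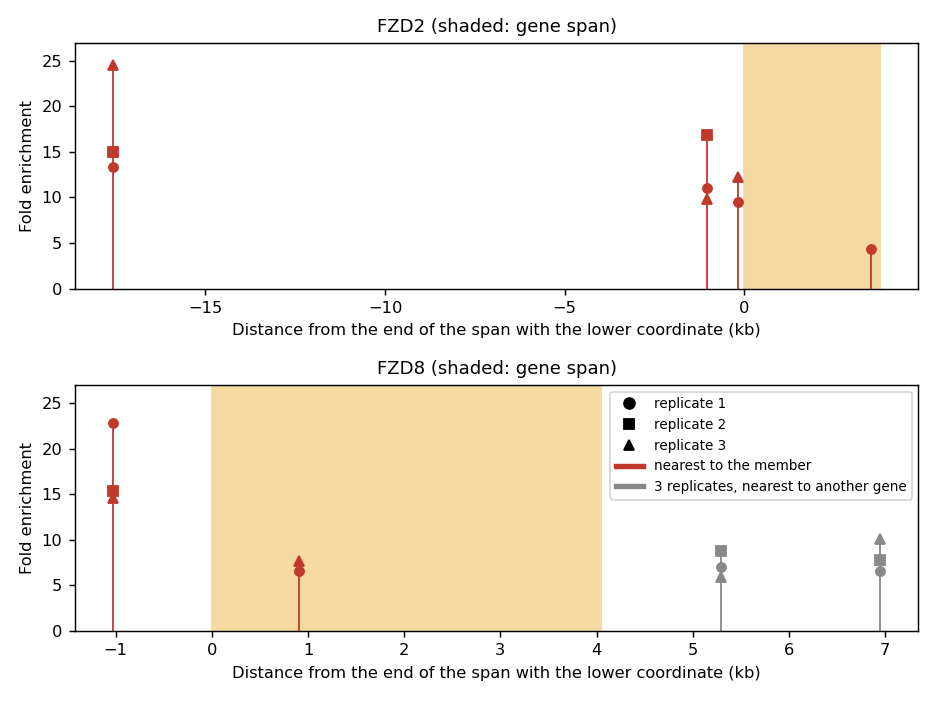
Fold enrichment (vertical axis, linear ratio) of GSX2 peaks around FZD2 and FZD8 by distance from the lower-coordinate end of each gene span (kb), with symbols for replicates, shading for the span and grey for regions of all 3 replicates counted for another gene (its other peaks are not drawn). FZD2 has 2 shared regions on the lower-coordinate side, and FZD8 has 1 on that side and 2 grey ones on the other.

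FZD3, a receptor of planar cell polarity and axon guidance, had 2 shared regions inside its span. The stronger (chromosome 8, 28513260 to 28513639) was the most even of the members' 10 shared regions, with 12.8, 13.0 and 13.3-fold, a mean of 13.0 ± 0.2 (SD, n = 3). The weaker (28495262 to 28495595) had 7.56, 6.35 and 9.20-fold, a mean of 7.70 ± 1.43 (SD, n = 3). The values of the 2 regions did not overlap.

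The other receptors had no region of all 3 replicates. FZD1 had a region 81.0 kb away in 2 replicates (5.33-fold and 9.17-fold in replicates 2 and 3), besides the promoter peak above and a peak of replicate 1 at 294.3 kb. FZD5 (5.39-fold), FZD6 (8.01-fold) and the co-receptor genes LRP5 (8.99-fold) and LRP6 (6.41-fold) each had a peak in replicate 3 alone, so these 4 of the 9 receptors with any region rest on that library. FZD7 had 4.68-fold in replicate 1 and 6.15-fold in replicate 3 at different places. FZD4, FZD9 and FZD10 had none.

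Secreted antagonists had 2 genes with shared regions, both of the Frizzled-related family. SFRP1 had a region inside its span (chromosome 8, 41300479 to 41300844) with 15.8, 10.2 and 12.3-fold, a mean of 12.8 ± 2.9 (SD, n = 3). A second region inside it had 7.26-fold in replicate 1 and 5.11-fold in replicate 3, and replicate 1 had 5.32-fold at 51.7 kb. FRZB, also a ligand-binding antagonist, had a region 14.1 kb from its span (chromosome 2, 182818618 to 182819526) with 7.55, 14.3 and 6.76-fold, a mean of 9.52 ± 4.12 (SD, n = 3). Replicate 2 was high, and the summits spread over 221 bp in a region of 909 bp. DNAJC10, the next coding gene, was 24.7 kb away. The FRZB region was no longer shared when peaks needed a −log10 q of at least 10, since replicate 3 had 9.23.

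SFRP2 and DKK2 had regions in replicates 2 and 3 and none there in replicate 1. The SFRP2 region, 107.0 kb before the start site, had 11.4-fold and 11.5-fold, and a peak inside the gene had 6.09-fold in replicate 3. DKK2 had 3 such regions, the strongest inside its span with 9.44-fold and 11.1-fold. DKK2 also has the longest territory of the 44 genes, 679.7 kb. DKK1, besides the peak at its start, had single peaks of 7.27-fold in replicate 2 at 5.76 kb and 10.8-fold in replicate 1 at 38.5 kb. DKK3, a divergent Dickkopf, had 4.86-fold in replicate 1 alone. SFRP4, SFRP5 and DKK4 were nearest to no region, although a region of all 3 replicates counted for SLC20A2 (8.93 ± 0.92-fold, SD, n = 3) lay 21.5 kb from DKK4. Like the one beside WNT8B, it was picked out after its values were seen. Among R-spondins, RSPO2 had a region 92.4 kb away with 7.75-fold in replicate 2 and 6.49-fold in replicate 3 and a peak of 10.2-fold inside the gene in replicate 1. RSPO3 had 4 peaks of 4.28 to 6.02-fold in replicate 1 alone. RSPO1 and RSPO4 had none.

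Across the 10 shared regions, mean fold enrichment ranged from 5.96 to 37.3 with a median of 12.7, beside a median of 9.49 over all 3534 distinct shared regions. Of the 10, 6 were above the upper quartile of 12.1 and 2 below the lower quartile of 7.74. The coefficient of variation between replicates ranged from 1.59% to 50.8% with a median of 26.3%, beside 19.5% for all shared regions. Members' regions of 1 replicate had a median of 6.02-fold (all genes 6.21) and those of 2 replicates 8.63-fold (all genes 7.18). Of the 10 regions, 3 lay inside a gene span and 7 outside, at a median of 14.1 kb, against 68.3 kb for shared regions outside spans over all genes. Under the nearest-span rule this distance is limited by the gene's territory. Territories of the 8 genes ran from 13.9 to 320.0 kb, while those of all genes reached 11288.5 kb. The part of territory in the gap between the medians was not tested. Counting shared regions inside or within 10 kb of the span left 5 of 44 members (11.4%), against 8.86% of all genes.

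**Figure D4:**
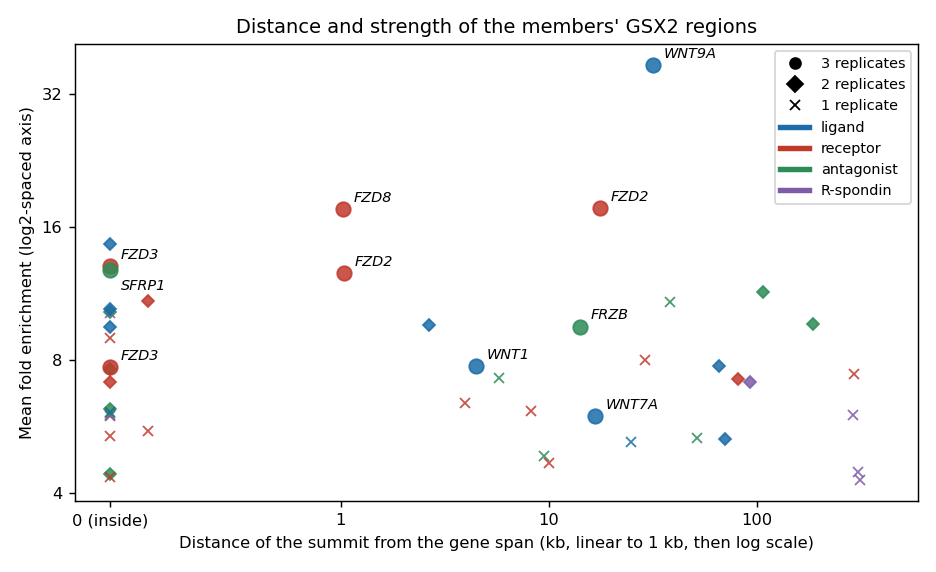
Mean fold enrichment (vertical axis, linear ratio on a log2-spaced axis) of each of the 48 members' regions against the distance of its summit from the gene span (kb, linear to 1 kb and logarithmic beyond). Shapes give the number of replicates and colours the class; named points are the 10 shared regions, all within 31.6 kb of a span.

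Other genes of the pathway, a list of 78, had a shared region at 22 of 78 genes (28.2%), against 12.5% of all genes, or 9.74 of 78. Their median territory was 123.3 kb, longer than that of the members, and the difference from the members was not tested. By role, 6 of 12 further receptors and binding partners had one, 5 of 12 nuclear effectors, 2 of 5 R-spondin receptors and ligases and 6 of 25 cytoplasmic components. Secretion factors had 1 of 5, other antagonists 1 of 9 and planar polarity genes 1 of 10. The 6 genes with the strongest regions were TCF7L2, GPC4, DACT1, LGR4, TCF7L1 and AXIN2. TCF7L2, a nuclear effector of beta-catenin, had 25.6, 21.7 and 36.5-fold in its strongest of 5 shared regions (27.9 ± 7.7, SD, n = 3). GPC4, a cell-surface glypican, had 30.3, 22.96 and 30.1-fold (27.8 ± 4.2, SD, n = 3). LGR4, an R-spondin receptor, had 18.8, 8.54 and 17.5-fold (14.9 ± 5.6, SD, n = 3). AXIN2, a feedback inhibitor of the pathway, had 14.3, 12.0 and 16.1-fold (14.1 ± 2.1, SD, n = 3) at 69.4 kb from its span. DACT1, a regulator of Dishevelled, reached 17.0 ± 1.7-fold (SD, n = 3) at 192.2 kb, and TCF7L1 14.6 ± 4.4-fold (SD, n = 3) inside the gene. The WNT9A region was stronger than each of these 6 in every replicate, except that TCF7L2 had the higher value in replicate 3.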

How the data were processed

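Chromatin immunoprecipitation of FLAG-tagged GSX2 was read from the peak lists of 3 replicates. The submitters' processing notes name Trim Galore, Bowtie2, SAMtools, MACS3 and deepTools, with no role stated, and hg38; their versions and settings, and the control for calling, are details not given in the sources used here. In the lists as deposited, made by the authors separately for each replicate, fold enrichment is a linear, unlogged ratio of signal to background. The authors' deposited −log10 q-values start at 3.00 to 3.01, and −log10 p-values stand beside them unused. The deposited score was not used.

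Lines of 1 interval were reduced to the summit of highest fold enrichment. Each interval was given to the nearest protein-coding span of RefSeq (GRCh38.p14, the same build as hg38; ties kept, 0 of them at members), and intervals of a gene were merged over replicates by at least 1 bp overlap. A region with a peak of every replicate is called shared. Python 3.11.15 and pandas 2.3.3 were used, and on planted data 200 of 200 regions were recovered among 19974 genes. The planted regions lay close to genes without near neighbours and shifted little between replicates. Recovery therefore does not cover assignments between close genes or widely spread summits. No test was made, since there is 1 group, and counts stand beside the same count over all genes. The members and lists were chosen with earlier results of these data known. Every member with a region was named, as were the 6 other Wnt genes with the strongest shared regions. Peak sequences came from RefSeq windows, since no genome was used here.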

Additional observations from a re-analysis of the deposited data

How the results depend on the processing

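No paired analysis was possible because the input libraries, which share replicate numbers with the precipitations, have no values here. The 8 members with a shared region stayed 8, and were the same genes, with an overlap of 50% of the shorter peak, with the nearest gene end and within 100 kb. They were 7 with summits within 200 bp, losing WNT7A (15.9%, all genes 12.2%). They were 6, losing WNT1 and WNT7A and leaving 1 ligand, with a −log10 q of at least 5 (13.6%, near the 11.4% of all genes) or with noncoding genes as candidates (13.6%, all genes 8.85%). A −log10 q of at least 10 left 5 members (11.4%, all genes 7.90%), losing FRZB too, with 1 ligand and 1 antagonist, and 13 of the other Wnt genes. Within 10 kb there were 5 members, with 1 ligand and 1 antagonist, and 6 regions.

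Regions of at least 2 replicates gave 16 members and 26 regions, with 6 ligands, 5 antagonists and 1 R-spondin. Regions of at least 1 replicate gave 25 members and 48 regions, with 8 ligands, 9 receptors, 6 antagonists and 2 R-spondins, and 43 other Wnt genes. Leaving out each replicate in turn, so that a region needed both others, gave 10 to 14 members (14 without replicate 1, which then included DKK2, FZD1, RSPO2, SFRP2, WNT4 and WNT8A), or 31.8%, 22.7% and 22.7% without replicates 1, 2 and 3 against 14.7%, 16.7% and 14.9% of all genes, with 4 to 5 ligands, 2 to 4 antagonists, 0 to 1 R-spondins and 12 to 19 regions. Any shared region within 50 kb, whichever gene was nearest, was an alternative chosen after seeing the data. It gave 11 members (25%, all genes 16.8%) with 5 ligands, adding DKK4, WNT10B and WNT8B. WNT10B was added by the same region that was counted for WNT1.

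By rank within each list FZD8 came ahead of FZD2, the reverse of their order by mean. Depth is unknown, so absence from a list sets no limit on binding.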
